A study of Mus musculus with 8 samples.

Results

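The genes examined were 4 genes of antigen presentation in lung RNA of mice that carry a fra-2 transgene: the MHC class II beta chain gene H2-Eb1, the invariant chain gene Cd74, the lysosomal thiol reductase gene Ifi30 and the dendritic cell lectin receptor gene Clec9a. They are 4 of 8741 genes with a name on the arrays, and 6 of 12296 named probes, since Cd74 has 3 probes and the others 1 each. The members were chosen by their mean ratio against the wild-type pool, which had passed a test in an earlier analysis of the same arrays, so their means are given as a description with no test. The mutants were 4 male mice, 14 weeks old, of genotype fra-2 (Fosl-2 gene) transgenic on a C57BL6 x CBA background. Their RNA was compared with 1 pool of RNA from 4 wild type males matched in background, age and tissue. Each mutant was hybridised on 2 two-colour arrays with the dyes exchanged, which gives 8 arrays in all. The labels give neither the promoter that drives the transgene nor the H2 haplotype of any mouse. Fosl2 itself was not analysed here.

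MHC class II molecules are pairs of an alpha and a beta chain that carry peptides from ingested proteins to CD4+ T cells. In the endoplasmic reticulum the chains bind the invariant chain, which blocks the groove and leads them to endosomes, where cathepsins cut it away and H2-DM helps exchange the last fragment for a peptide. Ifi30, also called GILT, reduces disulfide bonds of proteins in these compartments so that proteases can cut them. In lung the complex is made by dendritic cells, B cells, many macrophages and type 2 alveolar cells, whereas Clec9a, a receptor for actin exposed by dead cells, marks the dendritic cells that cross-present antigen to CD8+ T cells (cDC1).

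Promoter sequences were matched for 3 of the 4 genes in RefSeq (build GRCm38.p6), and the 150 bases before the start are shown to set the class II chain gene beside Ifi30 and Clec9a. Cd74 is not shown. H2-Eb1 lies on chr17:34305717-34305866 (plus strand), Ifi30 on chr8:70766664-70766813 (minus strand) and Clec9a on chr6:129408712-129408861 (plus strand). H2-DMb1 (chr17:34153076-34153155, plus strand) and H2-Oa (chr17:34092264-34092343, plus strand), genes of peptide loading, are shown over 80 bases. Capitals mark matches, on either strand, to TGATGATGC, letters of the X box of class II promoters, and to TGATTGG, letters of the Y box, which hold the complement of CCAAT. They also mark matches to TGANTCA, a looser form of the AP-1 site that Fos and Jun family dimers are known to bind. The strict site has C or G at N.
H2-Eb1: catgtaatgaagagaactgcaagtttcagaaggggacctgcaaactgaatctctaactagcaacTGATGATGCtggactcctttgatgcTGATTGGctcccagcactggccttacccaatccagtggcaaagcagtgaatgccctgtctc
H2-DMb1: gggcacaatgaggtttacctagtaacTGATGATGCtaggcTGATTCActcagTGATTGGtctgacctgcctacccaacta
H2-Oa: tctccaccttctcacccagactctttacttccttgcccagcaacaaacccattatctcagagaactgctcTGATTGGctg
Ifi30: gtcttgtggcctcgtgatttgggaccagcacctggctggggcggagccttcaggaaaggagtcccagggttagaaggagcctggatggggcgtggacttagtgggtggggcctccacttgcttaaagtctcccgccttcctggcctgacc
Clec9a: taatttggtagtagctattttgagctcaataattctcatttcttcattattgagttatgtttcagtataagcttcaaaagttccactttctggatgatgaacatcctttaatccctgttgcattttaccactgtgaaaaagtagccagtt
The X box letters and the Y box letters stood 16 bases apart in H2-Eb1 and 17 bases apart in H2-DMb1. H2-Oa held the Y box letters only. None of the 3 motifs had a match in the windows of Ifi30 and Clec9a. Among the 5 genes the AP-1 letters had a match only in H2-DMb1, with T at N, which is not the strict site. Over all 32851 RefSeq promoter windows of this length, 0.119% held the X box letters, 5.71% the Y box letters and 4.24% the AP-1 letters with any base at N. A match is a description of the letters and no measure of binding.

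The arrays gave 20585 to 20729 usable ratios each, and the 2 arrays of a mouse correlated at r = 0.389 to 0.685 over all probes. The Cy3 array of mouse 4 (transgenic RNA in Cy3) stood apart: its ratios had a standard deviation of 0.768, against 0.413 to 0.457 on the other 7 arrays, and it gave the lowest of these correlations. Values without it are given where it matters. A positive ratio is read as transgenic over pool from the order of the channels in the labels, which makes this direction likely and not certain. The pool is a single control sample, so its own spread is not in any test. The arrays give ratios and no levels, so the markers of lung could not be checked for presence. In whole lung RNA, fewer cells of a type and less RNA per cell cannot be told apart.

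H2-Eb1, which codes for the beta chain of the I-E molecule, had positive ratios on all 8 arrays. Its log2 ratios in mice 1 to 4 were 1.33, 0.53, 1.26 and 0.20 on the Cy5 arrays and 1.24, 0.53, 1.09 and 0.57 on the Cy3 arrays. Mice 1 and 3 were above 1 with either dye, and mice 2 and 4 were below 0.6. The mean was 0.85 ± 0.45 (SD, n = 4 mice), a 1.80-fold ratio if the deposited logarithm is of base 2, and it was 0.80 without the Cy3 array of mouse 4.

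Cd74 was read by 3 probes, which stood in rows 6371, 6917 and 16990 of the value table and are called probes 1, 2 and 3. Probe 1 gave log2 ratios of 1.69, 0.60, 1.30 and 0.51 on the Cy5 arrays of mice 1 to 4, and 1.33, 0.08, 1.02 and -0.14 on the Cy3 arrays. Probe 2 gave 1.25, 0.28, 1.36 and 0.59 with Cy5, and 1.10, 0.11, 1.01 and -0.25 with Cy3. Probe 3 gave 1.36, 0.27, 1.23 and 0.30 with Cy5, and 1.18, 0.37, 1.16 and 0.22 with Cy3. Every ratio of mice 1 and 3 was above 1 with all 3 probes, and every ratio of mice 2 and 4 was at or below 0.6. Both negative values came from the Cy3 array of mouse 4. The means of the mice were 0.80 ± 0.64, 0.68 ± 0.58 and 0.76 ± 0.54 for probes 1, 2 and 3 (SD, n = 4 mice), or 1.74-fold, 1.60-fold and 1.69-fold. The probes lay within 0.03 of each other in mouse 3 and within 0.34 in mouse 1, so their spread was smaller than that between mice. Averaged over the probes, Cd74 had a mean of 0.75 ± 0.58, and 0.81 without the Cy3 array of mouse 4.

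Ifi30 had the ratio farthest from the pool of the 4 genes, in whichever direction the ratio runs: if it ran the other way, the signs of all members would turn, with Clec9a above the pool and the other members below it. Its log2 ratios were 1.62, 1.09, 1.80 and 1.29 on the Cy5 arrays of mice 1 to 4, and 1.54, 0.80, 1.30 and 0.74 on the Cy3 arrays. All 8 values were positive, and the means of mice 1 and 3 (1.58 and 1.55) again lay above those of mice 2 and 4 (0.95 and 1.02). The mean was 1.27 ± 0.34 (SD, n = 4 mice), or 2.42-fold, and 1.34 without the Cy3 array of mouse 4. This mean lay at the 99.6th percentile of all probe means.

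Clec9a stood on the other side of 0. Its log2 ratios were -0.49, -0.59, -0.59 and -0.47 on the Cy5 arrays of mice 1 to 4, close to one another. On the Cy3 arrays they were 0.06, -1.04, -0.41 and -0.98, a much wider range, with mouse 1 just above 0. The mouse means were -0.21, -0.81, -0.50 and -0.72 in mice 1 to 4, again higher in mice 1 and 3 than in mice 2 and 4. The Cy5 arrays alone did not show this order. It was also lost without the Cy3 array of mouse 4, which left mouse 4 at -0.47, above mouse 3 at -0.50. The mean of the mice was -0.56 ± 0.27 (SD, n = 4 mice), which is 1.48-fold lower than the pool, and -0.50 without the Cy3 array of mouse 4. It lay at the 5.35th percentile of all probe means. On the Cy3 array of mouse 3 the value of Clec9a was shared by 106 probes, and on that of mouse 4 the value of Cd74 probe 3 was shared by 96. On the Cy3 array of mouse 2 the lowest Clec9a value, -1.04, was shared by 29. Each of these values may therefore not be a ratio of its own.

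**Figure D1:**
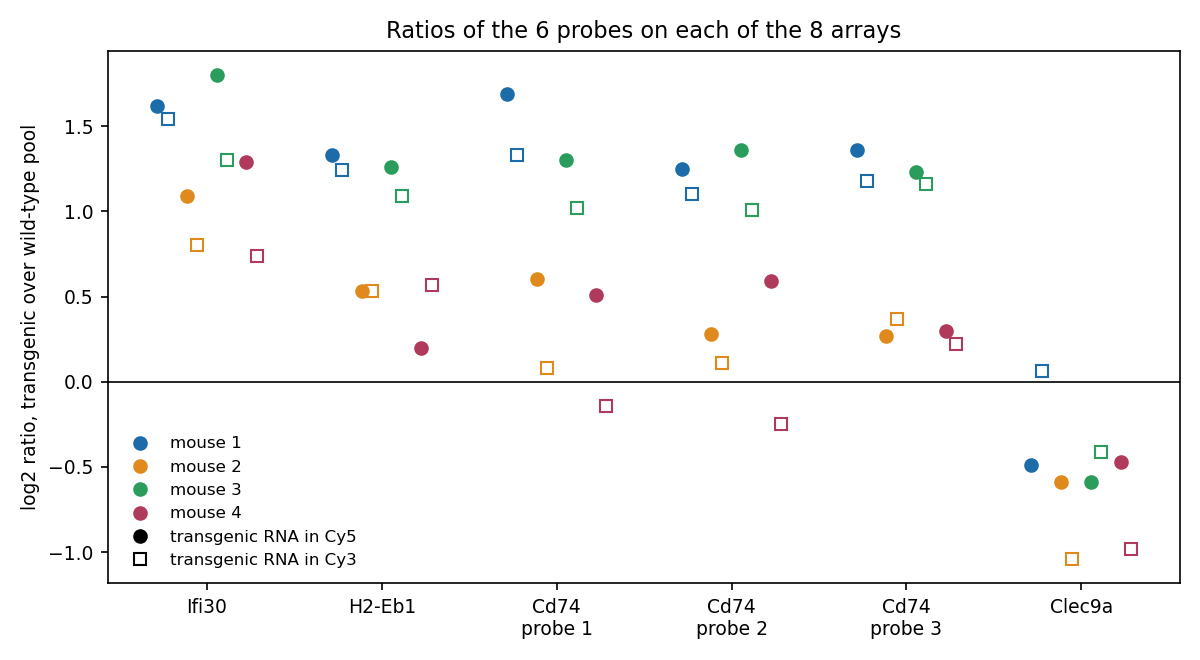
Log2 ratio of transgenic RNA over the wild-type pool (vertical axis) for the 6 probes of the 4 genes (horizontal axis), with 1 point per array, coloured by mouse, filled for transgenic RNA in Cy5 and open for Cy3. Mice 1 and 3 lie above 1 on all arrays for H2-Eb1, Cd74 and Ifi30, whereas Clec9a lies below 0 on 7 of 8 arrays.

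The difference between mice was then tested for each probe, a contrast that did not enter the choice of the genes. The test was a limma F test over the 4 mice that used every array and took the dye into account, and since both arrays of a mouse share their RNA, the spread it uses is that of hybridisation and labelling. Over all probes measured on 8 arrays, 201 of 20392, or 0.986%, differed between mice at an adjusted p under 0.05. Of the 6 probes, Cd74 probe 1 passed (range over mice 1.32, adjusted p = 0.0429). Cd74 probe 3 (range 1.01, adjusted p = 0.0512) and Cd74 probe 2 (range 1.02, adjusted p = 0.0974) missed the threshold. H2-Eb1 (range 0.90, adjusted p = 0.125), Ifi30 (range 0.63, adjusted p = 0.216) and Clec9a (range 0.60, adjusted p = 0.512) did not pass either. The median range over all probes was 0.42, below that of every one of the 6.

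The calls for Cd74 lay close to the threshold and moved with the arrays used. Without the Cy3 array of mouse 4, all 3 Cd74 probes passed, with adjusted p = 0.0443 for probe 2 and 0.0481 for probe 3, and 378 probes differed in all. Probe 1 missed it without the dye covariate (adjusted p = 0.208) and without mouse 1, 2 or 3 (adjusted p = 0.175, 0.237 and 0.283), and probes 2 and 3 passed it without mouse 4 (adjusted p = 0.0302 and 0.0408).

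**Figure D2:**
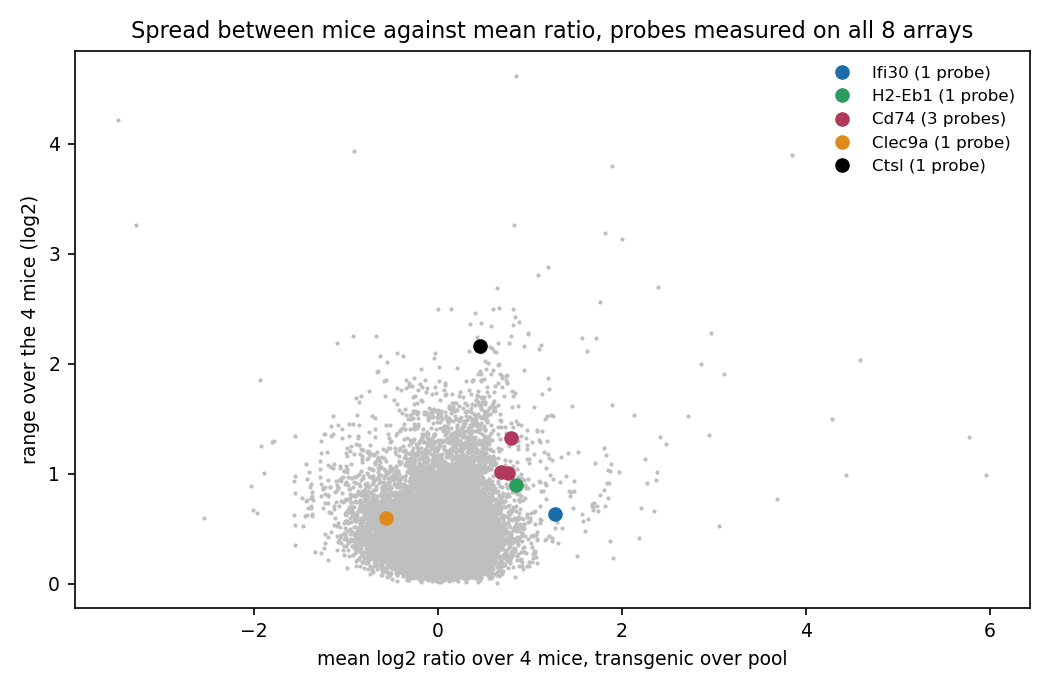
Range of the log2 ratio over the 4 mice (vertical axis) against its mean (horizontal axis) for the 20392 probes measured on all 8 arrays (grey), with the probes of H2-Eb1, Cd74, Ifi30, Clec9a and the cathepsin gene Ctsl in colour. The Cd74 probes have ranges of 1.01 to 1.32 and Ctsl 2.16, against 0.63 for Ifi30, whose mean is the highest of these.

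The dyes gave different values for some of the probes without passing the test. The Cy5 arrays read higher than the Cy3 arrays by 0.45 ± 0.17 for Cd74 probe 1, by 0.38 ± 0.32 for Cd74 probe 2 and by 0.36 ± 0.22 for Ifi30 (SD, n = 4 mice), with limma adjusted p = 0.17, 0.195 and 0.176. For Cd74 probe 3, Clec9a and H2-Eb1 the differences were 0.06, 0.06 and -0.03. Of all 20392 probes, 1 (0.0049%) had a dye effect at an adjusted p under 0.05, and 4912 had an unadjusted p under 0.05. The second count is above what a threshold of 0.05 gives on average with no dye effect. The count of 1 therefore does not show that dye effects are rare.

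Across the 8 arrays, with the mean of each dye orientation taken off, the ratios of Ifi30, H2-Eb1 and the Cd74 probes followed one another with Pearson r between 0.86 and 0.97. Clec9a followed them less closely, with r of 0.50 to 0.75. The points share the pool and, in pairs, a mouse, so these are descriptions over 4 mice. Against the other 12091 named probes the median r was 0.117 to 0.175 for the same probes, and between 0.571% and 4.7% of named probes had an r above 0.9.

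Of the genes most like each member by this measure, Ifi30 had Ssna1 (r = 0.994), Ctss (r = 0.992) and Pkn2 (r = 0.992). Ssna1 and Pkn2 had negative means (-0.82 and -0.59), whereas Ctss, the cathepsin S gene, had a mean of 1.22: likeness here is in the order of the mice and not in the level. For H2-Eb1 they were Padi2 (r = 0.993), the intramembrane protease gene Sppl2a (r = 0.992) and Gamt (r = 0.992). Sppl2a moved little, with log2 ratios of 0.22, -0.08, 0.21 and -0.11 in mice 1 to 4.

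For Cd74 the most alike were Ier5l, Psme2 and Lgals1 with probe 1 (r = 0.997, 0.991 and 0.991), Slc5a1, Nagpa and Cd34 with probe 2 (r = 0.996, 0.995 and 0.995), and Emcn, Sh3kbp1 and Ctsl with probe 3 (r = 0.995, 0.993 and 0.993). No gene was shared between the 3 probes. Psme2 codes for a subunit of the proteasome activator that interferon induces, Cd34 and Emcn for sialomucins of endothelium, and Ctsl for cathepsin L. For Clec9a they were Mthfsd (r = 0.978), the endocytic receptor gene Lrp1 (r = 0.976) and Pbp2 (r = 0.972), with means of -0.02, 0.04 and 0.33.

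The other genes of the class II pathway were taken from 4 lists, of chains, peptide loading, endosomal processing and regulators, without the members. Of the 24 tested, 9 rose and 5 fell in a limma test of the 4 mice against 0 (adjusted p under 0.05), with a median log2 ratio of 0.18. Over all 8692 genes tested, 31.8% were called, 13.4% higher and 18.3% lower, and the median was -0.01. The median of the pathway genes was 0.17, 0.06, 0.20 and 0.07 in mice 1 to 4. Without mouse 1, and likewise without mouse 3, 5 pathway genes rose in place of 9. Without mouse 2, and likewise without mouse 4, 3 fell in place of 5. Without the Cy3 array of mouse 4 alone the counts were again 9 and 5, although Rfx5 was no longer among those that rose.

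Among the chains, H2-Ab1, which codes for the beta chain of the I-A molecule, was the other one measured. Its log2 ratios were 0.87, -0.04, 0.69 and -0.04 in mice 1 to 4, so mice 2 and 4 were at the pool. The mean of 0.37 ± 0.48 (SD, n = 4) missed the threshold (limma adjusted p = 0.135).

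All 3 measured genes of peptide loading rose. H2-DMa, a chain of the peptide exchange factor H2-DM, had ratios of 0.96, 0.45, 0.69 and 0.76 and a mean of 0.71 ± 0.21 (limma adjusted p = 0.003, n = 4). Its partner H2-DMb1 had a mean of 0.53 ± 0.33 (limma adjusted p = 0.0185, n = 4), with 0.83 and 0.80 in mice 1 and 3 against 0.29 and 0.21 in mice 2 and 4. Its 2 probes differed, with means of 0.85 and 0.21, and the lower one was at -0.13 in mouse 4. H2-Oa, a chain of the H2-DM inhibitor H2-O, had a mean of 0.34 ± 0.12 (limma adjusted p = 0.0172, n = 4). In H2-DMa and H2-Oa mouse 4 lay above mouse 3, unlike in Cd74. H2-DMb1 and H2-Oa lost their calls when mouse 1 was left out (adjusted p = 0.0718 and 0.0749) and when mouse 3 was (adjusted p = 0.0607 and 0.0524), H2-DMb1 also with Cy3 arrays only (adjusted p = 0.142) and H2-Oa with Cy5 arrays only (adjusted p = 0.167).

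Of 10 genes of endosomal processing other than Ifi30, 4 rose and 2 fell. Those that rose were cathepsins: Ctss, whose enzyme makes the late cuts in the invariant chain (1.22 ± 0.51), Ctsd (0.86 ± 0.44), Ctsb (0.82 ± 0.60) and Ctsz (0.67 ± 0.29), each n = 4 mice. Ctss had 1.68 and 1.62 in mice 1 and 3 against 0.69 and 0.88 in mice 2 and 4. The lysosomal membrane protein genes Lamp1 (-0.36 ± 0.26) and Lamp2 (-0.35 ± 0.23) fell, with means of -0.67, -0.37 and -0.05 for the 3 Lamp1 probes. Leaving out mouse 1 or mouse 3 ended the call of Ctsb (adjusted p = 0.0743 and 0.0607), and Lamp1 and Lamp2 lost theirs under 5 of 13 alternatives each, among them leaving out mouse 2 (adjusted p = 0.139 and 0.125) or mouse 4 (adjusted p = 0.121 and 0.104).

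Ctsl showed the widest split between mice in the pathway. Its log2 ratios were 1.56, -0.59, 1.44 and -0.59 in mice 1 to 4, so that it was above the pool in mice 1 and 3 and below it in mice 2 and 4. It passed the F test (adjusted p = 0.0117), at rank 7 of 20392 probes, while its mean of 0.45 ± 1.21 did not pass against the pool (limma adjusted p = 0.408, n = 4). Of 32 probes of the pathway lists other than members, 2 differed between mice, the second being 1 of both Ctsb probes (range 1.25, adjusted p = 0.032). Both calls ended when mouse 1, 2 or 3 was left out (adjusted p = 0.0956 to 0.108 for Ctsl and 0.119 to 0.283 for Ctsb).

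**Figure D3:**
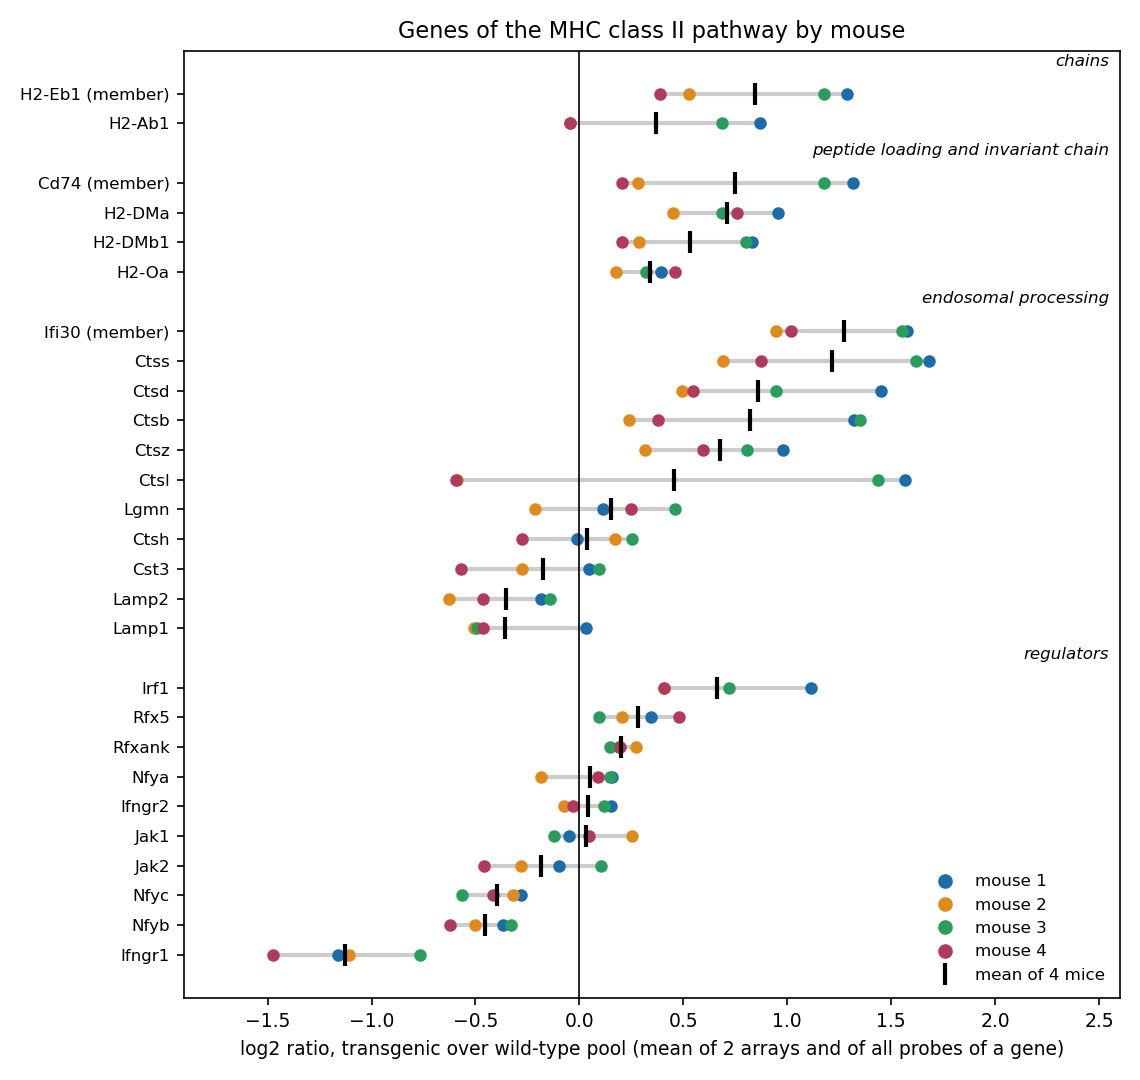
Log2 ratio over the wild-type pool (horizontal axis) of every measured gene of the 4 class II lists, with 1 point per mouse and a black tick at the mean of the 4 mice. Mice 1 and 3 lie to the right of mice 2 and 4 for H2-Eb1, H2-Ab1, Cd74, H2-DMb1, Ifi30, Ctss, Ctsd, Ctsb, Ctsz and Ctsl, and also for genes near or below 0 (Cst3, Lamp2, Jak2, Nfya, Nfyb and Ifngr2) and for Irf1. Rfxank and Jak1 show the opposite order, with mice 1 and 3 to the left of mice 2 and 4. How many genes outside these lists show either order was not counted.

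Of 10 regulator genes, 2 rose and 3 fell, and their median was 0.04. Irf1, an interferon-induced transcription factor, rose (0.66 ± 0.34, n = 4). Rfx5, a subunit of the factor that binds the X box, was higher by 0.28 ± 0.17 (limma adjusted p = 0.045, n = 4), a call lost under 8 of 13 alternatives (adjusted p = 0.0517 without the Cy3 array of mouse 4), and its value was shared by 90 or more probes on 3 of 8 arrays. The NF-Y genes Nfyb (-0.46 ± 0.13, with -0.75 and -0.16 for its 2 probes) and Nfyc (-0.40 ± 0.13), whose products bind the Y box, fell, while Nfya had a mean of 0.05 (limma adjusted p = 0.663). Ifngr1, a chain of the interferon gamma receptor, fell most (-1.13 ± 0.29), with -1.16, -1.11, -0.77 and -1.48 in mice 1 to 4. The partner chain Ifngr2 had a mean of 0.04 (limma adjusted p = 0.712). The master regulator Ciita was not analysed here.

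Clec9a was set beside the other genes of the list for its dendritic cell type, and whether these are particular to that type was not tested. Of 6 further genes on the cDC1 list, 1 rose, 1 fell and 4 did not pass, too few to set against the 31.8% called over all genes. Their median was 0.17, and 0.25, 0.06, 0.14 and 0.12 in mice 1 to 4. Ly75, the receptor DEC-205, rose (0.45 ± 0.31, n = 4), and the adhesion gene Cadm1 fell (-0.36 ± 0.14, n = 4), with means of -0.59 and -0.12 for its 2 probes. Irf8, a transcription factor these cells need, had a mean of 0.18 ± 0.14 (limma adjusted p = 0.13, n = 4), and Flt3, their growth factor receptor, one of 0.39 ± 0.39 (limma adjusted p = 0.0757, n = 4). Id2 had a mean of 0.16 ± 0.09 (limma adjusted p = 0.139, n = 4). The Cy5 minus Cy3 difference was -0.72 ± 0.73 for Ly75 (limma adjusted p = 0.187, n = 4). For 1 of the 2 Flt3 probes it was -1.30 ± 0.83 (limma adjusted p = 0.17, n = 4). The value of that Flt3 probe was shared by 90 or more probes on 4 of 8 arrays. Xcr1 and Batf3 were not analysed here. Of these 6, Cadm1 and Zbtb46 had negative means. That of Zbtb46 was -0.13 ± 0.35 (limma adjusted p = 0.46, n = 4), with -0.07, 0.07, 0.11 and -0.65 in mice 1 to 4. For 1 of its 2 probes the value was shared by 90 or more probes on 4 of 8 arrays. Ly75 lost its call under 6 of 13 alternatives, among them without the Cy3 array of mouse 4 (adjusted p = 0.0557), and Cadm1 under 3.

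Genes of other dendritic cell types were read against the 13.4% higher and 18.3% lower calls over all genes. Of 10 genes of migratory and mature cells, 6 rose and none fell, with a median of 0.32, and 0.40, 0.27, 0.42 and 0.12 in mice 1 to 4. The chemokine genes Ccl17 (1.81 ± 0.52) and Ccl22 (1.02 ± 0.58) and the actin bundling gene Fscn1 (0.77 ± 0.39), each n = 4, had the highest means. The 4 that did not pass were Cd40 (-0.20), Icosl (-0.05), Cd86 (0.13) and Relb (0.17), with limma adjusted p = 0.295, 0.645, 0.437 and 0.148. Ccl17 was lowest in mouse 1 (1.08) and highest in mouse 4 (2.32), an order unlike that of Cd74. Of 4 genes of the CD11b+ type, Irf4 rose (0.73 ± 0.45) and Notch2 fell (-0.73 ± 0.29), and the median was -0.11. Of 6 plasmacytoid genes 2 rose, Il3ra (1.08 ± 0.09) and Ly6d (0.41 ± 0.22), and none fell. The 4 that did not pass were Tcf4 (-0.09), Bst2 (-0.03), Irf7 (0.13) and Klk1 (0.23), with limma adjusted p = 0.356, 0.878, 0.373 and 0.14. The counts for these last types, of 4 and of 6 genes, are too small to set against that background. Irf4 lost its call when mouse 4 was left out (adjusted p = 0.0627) and with Cy3 arrays only (adjusted p = 0.113). Ly6d lost it when mouse 1 or mouse 3 was left out (adjusted p = 0.081 and 0.0651) and with Cy3 arrays only (adjusted p = 0.113).

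Clec9a itself codes for a C-type lectin receptor, and the others measured had mostly positive ratios. Of 6 C-type lectin receptor genes of myeloid cells, 4 rose and none fell, with a median of 0.93, and 1.24, 0.62, 1.08 and 0.91 in mice 1 to 4. Over all genes 13.4% were called higher and 18.3% lower, and 6 genes are too few to set against these shares. Clec4b1 (1.81 ± 0.36), Clec4a2 (1.77 ± 0.38) and the mannose receptor gene Mrc1 (1.24 ± 0.27) had the highest means, each n = 4. Clec4d had a mean of -0.21 (limma adjusted p = 0.186).

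Genes of cells that also carry class II molecules moved beside the members, and their part in the ratios of H2-Eb1, Cd74 and Ifi30 was not tested. Over all genes, 13.4% were called higher and 18.3% lower. Of 10 macrophage genes 7 rose and none fell, with medians of 1.19, 0.60, 0.97 and 0.73 in mice 1 to 4. Gpnmb, a glycoprotein of lipid-laden macrophages, had ratios of 3.59, 1.15, 3.76 and 1.06 and passed the F test between mice (adjusted p = 0.0114), as did C1qa (adjusted p = 0.0304), with a mean of 1.89 ± 0.75. Leaving out mouse 1, 2 or 3 ended these calls too (adjusted p = 0.0724 to 0.108 for Gpnmb and 0.115 to 0.266 for C1qa), as did leaving the dye out of the model for C1qa (adjusted p = 0.175). Of 7 B cell genes 4 rose and 2 fell, with medians of 0.79, 0.40, 0.65 and 0.29. Blnk (1.03 ± 0.21), Cd22 (0.996 ± 0.242) and the CD20 gene Ms4a1 (0.65 ± 0.19) had the highest means, and Ebf1 (-0.36 ± 0.18) and Blk (-0.29 ± 0.13) fell. The 3 Ebf1 probes differed in sign, with means of -0.58, -0.68 and 0.20, and Blk had a value shared by 90 or more probes on 5 of 8 arrays. In both lists mice 1 and 3 had the higher medians, the order seen in the mouse means of H2-Eb1, Cd74, Ifi30 and Clec9a. For Clec9a the Cy5 arrays alone did not show this order, and it was lost without the Cy3 array of mouse 4. Blk lost its call under 7 of 13 alternatives, among them without the Cy3 array of mouse 4 (adjusted p = 0.0867), and Ebf1 under 4.

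The medians of the T cell list (0.97, 0.25, 0.45 and 0.33 in mice 1 to 4) and of the class I list (0.18, 0.04, 0.35 and -0.14) were also highest in mice 1 and 3, and those of the alveolar macrophage and type 2 epithelial lists were not. Alveolar macrophage genes had medians of -0.96, -0.81, -0.64 and -0.61 in mice 1 to 4, with Marco (-2.54 ± 0.28), Fabp4 (-1.16 ± 0.58) and Fabp1 (-0.89 ± 0.23) lower and the chitinase-like gene Chil3 (4.43 ± 0.41) higher. Type 2 epithelial genes, of cells that carry class II molecules in healthy lung, had a median of -0.03, and 1 of 6 rose, the surfactant protein gene Sftpb (0.37 ± 0.19). Of 5 T cell genes 3 rose, Cd2 (0.70 ± 0.22), Cd3g (0.53 ± 0.20) and Foxp3 (0.31 ± 0.09). Of 11 class I and peptide loading genes, 2 rose and 2 fell, against a median of 0.17. Psmb10 (0.51 ± 0.33) and B2m (0.31 ± 0.15) rose. The peptide transporter gene Tap1 (-0.59 ± 0.20) and H2-T23 (-0.39 ± 0.27, with -0.66 and -0.12 for its 2 probes) fell. Among the 7 that did not pass, H2-K1 (0.57 ± 0.53) and Psmb8 (0.59 ± 0.56) had the highest means (limma adjusted p = 0.0509 and 0.0546, n = 4). Canx, H2-M3 and Erap1 had negative means (-0.24, -0.24 and -0.04). Over all genes 13.4% were called higher and 18.3% lower, and the class I counts lay near these shares. The T cell and type 2 lists, of 5 and 6 genes, are too small to set against them. The calls of Sftpb, Foxp3, B2m, Psmb10 and H2-T23 were each lost under 3 to 5 of 13 alternatives, that of Cd3g with Cy3 arrays only (adjusted p = 0.429) and that of Tap1 with Cy5 arrays only (adjusted p = 0.0524).

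**Figure D4:**
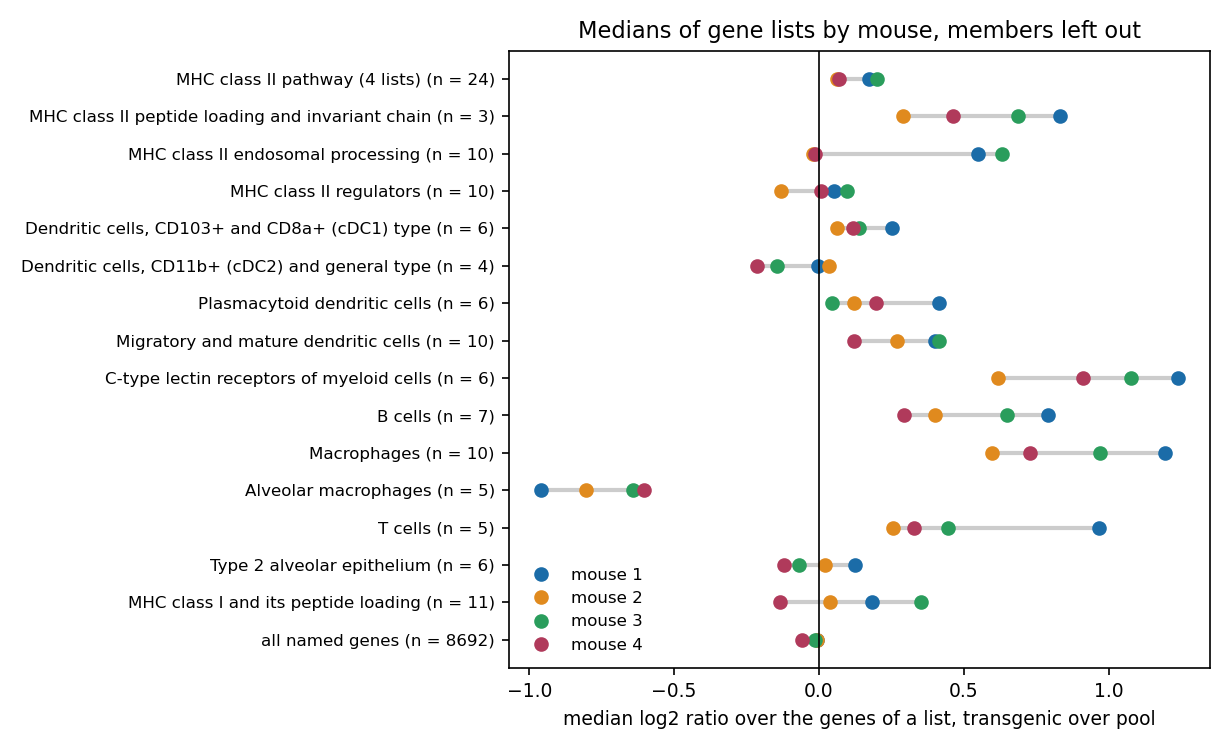
Median log2 ratio over the wild-type pool (horizontal axis) of each gene list without the members, with 1 point per mouse and the number of genes tested in brackets. The macrophage medians run from 0.60 to 1.19 and the B cell medians from 0.29 to 0.79, with mice 1 and 3 highest in both, whereas the medians of all 8692 genes lie near 0.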

How the data were processed

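The deposited table holds the authors' log ratios for 20794 probes on 8 arrays, taken here as log2 from placeholder values near 16 in size. No source used here gives the base, the image analysis or the normalization. The 8 array medians were -0.020, 0.001, 0.002, 0.008, -0.015, 0.006, -0.004 and -0.093, so the values were centred near 0, and the direction is likely only. Values beyond 10 in size (498) were set to missing. Names came from the platform annotation, whose probe numbers were matched to rows by an offset of 11 (annotation numbers up to 20237): Spearman's rho between probes of 1 gene was 0.224 at this offset and 0.013 at equal numbers. The offset was the best of 121 nearby ones in 18 of 21 blocks of 1000 numbers. Ctsz, Lgals1, Clec4d and 1 probe each of Cadm1, Ebf1, Irf8 and Zbtb46 lie in the other blocks, which leaves these names less sure.

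The 2 arrays of a mouse, and the probes of a gene, were averaged. limma 3.58.1 (R 4.3.3) tested means against 0, differences between mice (F test) and dye effects, with Benjamini-Hochberg adjustment over all features tested and a threshold of 0.05, and was tested on simulated data. Number of mice limits the precision. Each member probe and each class II chain or loading gene was named, as were processing and regulator genes that passed, up to 3 genes per direction of each other list, and the 3 named probes most like each member probe. Other genes that did not pass were named beside these, and their means were not followed under the alternatives. The members and gene lists were chosen with earlier results of these data known. Alternatives were each mouse left out, 1 dye alone, array centring, placeholders kept, complete features, mouse as a random block, a robust variance prior and 1 probe per gene.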

Additional observations from a re-analysis of the deposited data

Results flagged for a closer look

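Of 54 values tested for a mouse that stands far from the other 3, 3 were found, about as many as the 1 in 20 that chance gives, and none was a member. Lamp1 was 0.03 in mouse 1, against -0.51 to -0.47 in the others. Clec4a2 was 1.20 in mouse 2, against 1.92 to 2.01. Marco was -2.96 in mouse 3, against -2.46 to -2.36.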

How the results depend on the processing

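The mean of each of the 4 members kept its sign under every alternative run, and none of the 46 list genes followed under them reversed. The members and nearly all of these list genes were chosen by this same mean on the same arrays, so kept signs are no separate support. Of 45 named genes past the threshold against the pool, 26 kept their call under all alternatives run and 19 lost it under 1 or more. Leaving out 1 mouse gave 1552 to 2100 changed genes in place of 2762 and 2547 to 4064 changed probes in place of 5302, and the Cy3 arrays alone gave 3190 changed probes. Pathway genes that rose numbered 5 to 8 in place of 9 with 1 mouse left out, and those that fell 3 to 4 in place of 5, with 3 on the Cy3 arrays alone and 3 with placeholder values kept. Over the 4 dendritic cell lists, 5 to 7 genes rose in place of 10 with 1 mouse left out and 6 on the Cy3 arrays alone, and 1 to 2 fell in place of 2, with 1 on the Cy3 arrays alone. Probes that differed between mice numbered 201, 84 without the dye covariate, 0 to 500 with 1 mouse left out and 378 without the Cy3 array of mouse 4, an alternative chosen after seeing the data. The count was 0 without mouse 1 and without mouse 3. Dye effects numbered 0 to 1 with 1 mouse left out. The F test of Cd74 probe 1 gave adjusted p = 0.208 without the dye covariate in place of 0.0429. With 1 mouse left out the adjusted p was 0.0277 to 0.283 for probe 1, 0.0302 to 0.377 for probe 2 and 0.0408 to 0.302 for probe 3, lowest without mouse 4, and probes 2 and 3 gave 0.0443 and 0.0481 without the Cy3 array of mouse 4. The causes were not tested. No paired analysis was possible because the labels hold 1 group of mutants measured against 1 pool.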
